A study of Rattus norvegicus with 6 samples.

Results

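Robo1, Epha5 and Dpysl2 are host genes of circular RNAs (circRNAs) and encode proteins that steer growing axons. A circRNA is a closed RNA loop, formed by splicing a later exon end back onto an earlier exon start, and it is measured by the reads that cross this back-splice junction. The circRNAs were selected by host symbol from the study's table, leaving out the antisense class, which held 0 circRNAs of these hosts. That gave 18 of the 11061 circRNAs in the table, from 3 of its 4443 host genes: 5 of Robo1, 10 of Epha5 and 3 of Dpysl2. The libraries came from spinal cord of Wistar rats aged 8 weeks. In 3 libraries the cord had been transected (spinal cord injury, SCI), and in 3 laminectomy, removal of bone over the cord, had been done with no cord lesion (sham). By the design text the transection was complete, whereas the wording of the title also allows an incomplete one, and the sources used here give no interval after surgery. Whether every library is a different rat is not labelled, so the p-values cover only the spread among these libraries, which may be technical.

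Robo1 is a receptor at the axon surface for Slit proteins, secreted cues that repel axons from the midline. Epha5 is a receptor tyrosine kinase for ephrin-A proteins, cues held on the membrane of neighbouring cells that turn axons away on contact and set up ordered nerve maps. Dpysl2, also named Crmp2, is a protein inside the axon that binds tubulin, promotes axon growth and relays the repulsive signal of semaphorin 3A. Such cues are present around spinal cord lesions, where they are studied as limits to axon regrowth. Back-splice reads measure the circles of these genes, and neither the linear mRNA nor the protein was measured.

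The libraries held 9805 to 21255 back-splice reads, with 61705 in the SCI and 34158 in the sham libraries, a ratio of 1.81. The depth therefore differed with the group. Shares and ratios are taken relative to the library total, and fold changes use library sizes scaled over the features tested. Read counts given alone are not scaled for depth. The table lists only circRNAs that reach 2 reads somewhere, so a deeper library brings more weakly read circles into it. Across the 484 circRNAs tested, log2 CPM (reads scaled to a common library size, on a log scale) were correlated between libraries. The values were 0.745 to 0.773 between SCI libraries, 0.370 to 0.522 between sham libraries and 0.498 to 0.633 between libraries of different groups. These are Pearson correlations across circRNAs, which are not independent. The sham libraries had the lowest range and also the fewest reads, and the part of depth in this was not tested. Of the marker hosts listed for the tissue, neuronal hosts (10 of 12 with reads) took 0.602% to 0.791% of reads in SCI and 0.459% to 0.684% in sham libraries. Oligodendrocyte hosts (9 of 12 with reads) took 0.490% to 0.569% in SCI and 0.447% to 0.510% in sham libraries. Endothelial and pericyte hosts (4 of 8 with reads, with Pecam1, Cldn5, Kdr and Pdgfrb at 0) took 0.0528% to 0.0565% in SCI and 0.102% to 0.129% in sham libraries, without overlap. These shares came from 34 reads in SCI and 39 in sham libraries, with Flt1 the most-read host. Of the 647 single hosts tested, 5.1% were lower in SCI without overlap in CPM. Astrocyte hosts (8 of 10 with reads) took 0.209% to 0.321% in SCI and 0.275% to 0.347% in sham libraries. For microglia and macrophages 8 of 10 markers were at 0, for Schwann cells 4 of 6 and for muscle 6 of 8, and each of these lists stayed at or under 0.0336% in every library. The part of these differences in the results was not tested, and in bulk tissue fewer cells of a type cannot be told apart from less RNA per cell.

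Each host had 1 circle with more reads than any other. For Robo1 it was an exonic circRNA of 388 predicted bases (chromosome 11, 13687052 to 13689365, plus strand), which took 89.4% of the host's 104 reads. For Epha5 it was an exonic circRNA of 664 bases (chromosome 14, 25501634 to 25502297, plus strand) with 51.4% of 70 reads. For Dpysl2 it was an exonic circRNA of 274 bases (chromosome 15, 48056417 to 48059076, plus strand) with 65.2% of 23 reads. These were the 3 circRNAs with 10 or more reads over the 6 libraries. The other 15 had 2 to 8 reads each. The sources used here do not name the genome build of the coordinates, and the chromosomes are those of the same genes in RefSeq (rat assembly GRCr8).

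Most of the circles shared a start or an end with another circle of their host. All 5 Robo1 circles shared a start or an end with another, and they used 2 starts and 4 ends. The 388-base circle began at the same position as circles of 685 bases (ending at 13723015) and 1309 bases (ending at 13734327). A circle of 624 bases (13731979 to 13734327) ended where the 1309-base circle ended, and a circle of 1540 bases began at the same start as the 624-base one and ended at 13756791. The predicted lengths of 685 and 624 bases add up to the 1309 bases of the longer circle, which spans both. Epha5 used 6 starts and 6 ends for its 10 circles, and all 10 shared one with another. The start at 25729108 added 66 bases to the circles that began at 25739058, whether they ended at 25741271 (446 against 380 bases) or at 25774784 (1218 against 1152 bases). Of the Dpysl2 circles, the 274-base one shared its start with a circle of 772 bases (48056417 to 48099775), and the circle at 48117874 to 48119903 shared neither end. Together 17 of the 18 circles shared an end, against 66.9% of the 6186 circles of hosts with 3 or more circRNAs in the table. This share was not tested, since circles of 1 host are not independent. The comparison is also uneven, since a circle of a host with many circles has more others to share with. Epha5 gave 10 of the 18, and only 89 hosts had 10 or more circRNAs.

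**Figure D1:**
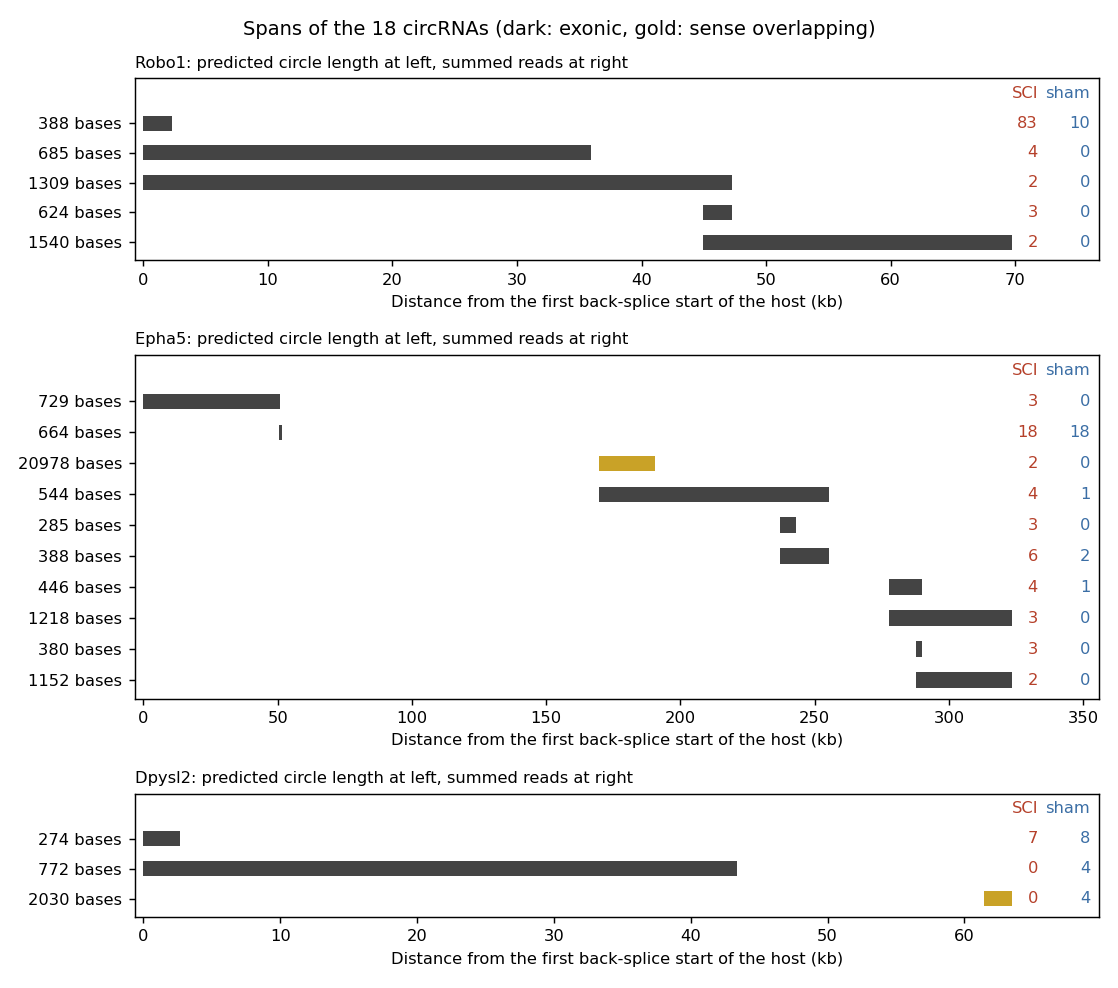
Spans of the 18 circRNAs as bars along the distance from the first back-splice start of each host (x axis, kb), with predicted circle length in bases at left and reads summed over the 3 SCI and the 3 sham libraries at right. Most of the bars line up at a shared start or end, and the most-read circles of Robo1 and Epha5 (388 and 664 bases) are among the shortest spans of their hosts.

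By class, 16 of the 18 circles were exonic and 2 were sense overlapping, one in Epha5 and one in Dpysl2. The table held an entry in its circBase column, a catalogue of known circRNAs, for 10 of the 18 (2 of Robo1, 7 of Epha5 and 1 of Dpysl2), against 51.4% of the exonic circRNAs and 39.9% of all circRNAs in the table. The 3 most-read circles were all among these 10. Spans ran from 664 to 85625 bases with a median of 19518, against a median of 11695 for the 6967 exonic circRNAs of the table. The predicted length of the 664-base Epha5 circle equalled its span, so it holds a single uninterrupted stretch of the gene. The sense overlapping circles of 20978 bases (Epha5) and 2030 bases (Dpysl2) also equalled their span, as did all 2845 sense overlapping circRNAs of the table. Those lengths are predictions from the annotation, not measured sizes.

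Robo1 circles took a larger share of back-splice reads in each of the SCI libraries than in any sham one. Summed over its circles, Robo1 had 38, 18 and 38 reads in SCI replicates 1, 2 and 3, against 0, 4 and 6 reads in sham replicates 1, 2 and 3. As a share of the library that was 0.179%, 0.0863% and 0.194% in SCI libraries, against 0%, 0.0408% and 0.0472% in sham libraries. The 0 in sham replicate 1 allows a share of up to 0.0258%, by the limit of 3 reads. SCI replicate 2 was the lowest of the SCI libraries, and its 95% Wilson interval of 0.0546% to 0.136% overlapped that of sham replicate 3 (0.0216% to 0.103%). The means were 0.153% ± 0.0582 in SCI and 0.0293% ± 0.0256 in sham libraries (SD, n = 3 each), and the two-sided exact permutation p was 0.10, the smallest that 3 against 3 libraries can give (0.15 adjusted over the 3 hosts). Relative to the totals the reads stood at a ratio of 5.20 (exact 95% interval 2.71 to 11.2). Intervals and limits cover counting error only.

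Against the whole table the Robo1 sum did not pass the test. Its level was 2516 ± 976 CPM in SCI and 473 ± 412 CPM in sham libraries (SD, n = 3 each), with a log2 fold change of 2.38 (SE 0.71, unadjusted p = 0.00470, adjusted p = 0.550 over 647 hosts, edgeR quasi-likelihood). Of those 647 hosts, 0.155% were called higher and 0.155% lower, and 6.49% had an unadjusted p under 0.05. In 9.89% of hosts the CPM of every SCI library lay above that of every sham library, as for Robo1. By size of p Robo1 stood at rank 5 and by log2 fold change at rank 7. It passed without a filter on low counts (adjusted p = 0.0256) and without sham replicate 3 (adjusted p = 0.0233, log2 fold change 3.05), and in none of the other 13 alternatives, DESeq2 and limma-voom included. Over all 15 its adjusted p ran from 0.0233 to 0.975, and its log2 fold change from 1.90 to 3.05, positive in each.

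**Figure D2:**
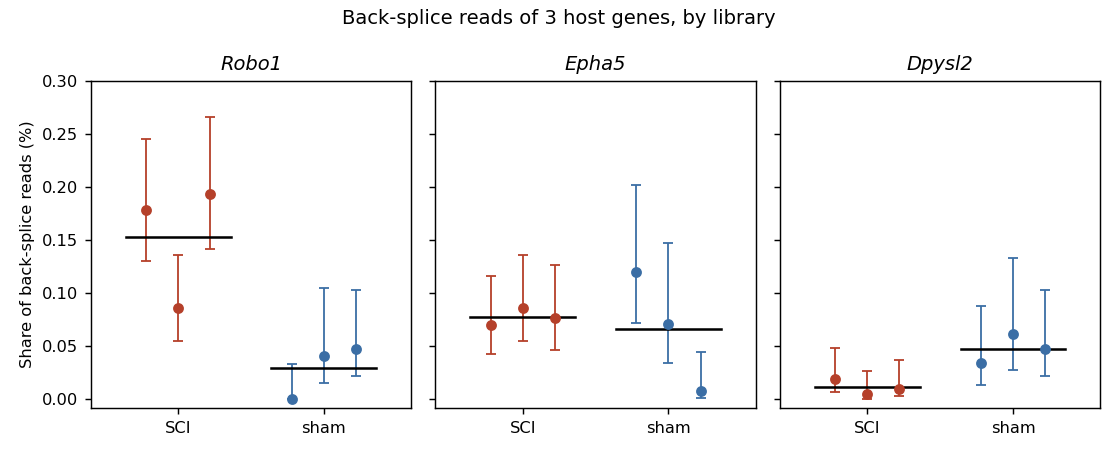
Share of all back-splice reads (y axis, percent) taken by each host in the 3 SCI libraries and the 3 sham libraries, replicates 1 to 3 from left to right. Points are libraries, error bars are 95% Wilson intervals and black lines are group means. The points of the groups are apart for Robo1 (higher in SCI) and Dpysl2 (lower in SCI) and overlap for Epha5. For Robo1 and Dpysl2 some error bars of SCI and sham libraries still overlap.

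Most of the Robo1 difference lay in its 388-base circle. This circle had 33, 17 and 33 reads in the SCI libraries, against 0, 4 and 6 reads in the sham libraries. Of the 484 circRNAs tested, 0 were called higher and 0.207% lower by edgeR, and 6.2% had an unadjusted p under 0.05. The groups did not overlap, higher in SCI, for 9.71% of them, and lower in SCI for 5.17%, while 56.2% had a positive log2 fold change. For this circle the log2 fold change was 2.14 (SE 0.75) and the adjusted p 0.719, which did not pass. The other 4 circles had 5, 1 and 5 reads together in SCI libraries and 0 in each sham library. Against a limit of 3 reads over the sham group those 11 reads give a ratio of 2.03 relative to the totals, and the exact 95% lower limit of the ratio, with 0 sham reads, was 1.39. These 4 circles are in the table only because an SCI library, in the deeper group, reached 2 reads. Neither value can therefore show a difference between the groups. The 685-base circle was read in all 3 SCI libraries (1, 1 and 2 reads), and the remaining 3 circles in 1 SCI library each. The 388-base circle took 89.4% ± 4.39 of Robo1 reads in SCI (SD, n = 3) and 100% in both sham libraries that had any (two-sided exact permutation p = 0.20, adjusted 0.30 over the 3 hosts). Those sham libraries had 4 and 6 Robo1 reads.

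Dpysl2 circles took a smaller share in each of the SCI libraries than in any sham one, from few reads. The host had 4, 1 and 2 reads in the SCI libraries, against 4, 6 and 6 reads in the sham libraries. The shares were 0.0188%, 0.00480% and 0.0102% in SCI libraries, against 0.0344%, 0.0612% and 0.0472% in sham libraries. The highest SCI and the lowest sham library each had 4 reads, so their order comes from the library totals. The 95% Wilson intervals of these libraries, SCI replicate 1 (0.00732% to 0.0484%) and sham replicate 1 (0.0134% to 0.0884%), overlapped. The means were 0.0113% ± 0.00707 in SCI and 0.0476% ± 0.0134 in sham libraries (SD, n = 3 each; two-sided exact permutation p = 0.10, adjusted 0.15 over the 3 hosts). Relative to the totals the ratio was 0.242 (exact 95% interval 0.0843 to 0.622). In edgeR the log2 fold change of the host sum was -1.97 (SE 1.01, adjusted p = 0.767), which did not pass. For 5.1% of hosts the CPM was lower in all SCI than in any sham library. The Dpysl2 fold change stayed negative in the 13 alternatives that gave a value (-2.49 to -1.58), with an adjusted p of 0.551 or more.

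The 3 Dpysl2 circles did not share this gap. The 274-base circle had 4, 1 and 2 reads in SCI libraries, against 0, 2 and 6 reads in sham libraries, and the groups overlapped. The 772-base circle had 4 reads in sham replicate 1 and 0 elsewhere. The 2030-base circle, which is sense overlapping, had 4 reads in sham replicate 2 and 0 elsewhere. The gap of the host thus rests on 8 reads of 2 circles, each seen in a single sham library, and without them the difference in share, SCI minus sham, was -0.0112 percentage points with overlap, against -0.0363 with them. Without the 274-base circle the difference was -0.0251, with overlap. The 274-base circle took all Dpysl2 reads in SCI libraries and 0%, 33.3% and 100% in the sham libraries (two-sided exact permutation p = 0.40, adjusted 0.40 over the 3 hosts).

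Epha5 as a whole overlapped between the groups. It had 15, 18 and 15 reads in the SCI libraries, against 14, 7 and 1 reads in the sham libraries. The shares were 0.0706%, 0.0863% and 0.0765% in SCI libraries, against 0.1204%, 0.0714% and 0.00786% in sham libraries, so the sham libraries lay on either side of the SCI ones. The means were 0.0778% ± 0.00796 in SCI and 0.0665% ± 0.0564 in sham libraries (SD, n = 3 each; two-sided exact permutation p = 0.80, adjusted 0.80 over the 3 hosts). The ratio relative to the totals was 1.21 with an exact 95% interval of 0.715 to 2.10. In edgeR the log2 fold change was 0.27 (SE 0.70, adjusted p = 0.986). Its direction turned without sham replicate 3, the library with 1 read, to -0.23.

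Within Epha5 the 664-base circle had a smaller mean share in SCI than in sham libraries and the other 9 circles together a larger one, though each overlapped between the groups. The 664-base circle had 1, 7 and 10 reads in the SCI libraries, against 13, 4 and 1 reads in the sham libraries. In edgeR its log2 fold change was -0.89 (SE 1.00, adjusted p = 0.971), and it turned to 0.46 without sham replicate 1, which held 13 of its 18 sham reads. The other 9 circles together had 14, 11 and 5 reads in SCI libraries, against 1, 3 and 0 reads in sham libraries. As shares these were 0.0480% ± 0.0206 in SCI and 0.0131% ± 0.0158 in sham libraries (SD, n = 3 each; two-sided exact permutation p = 0.20), a ratio of 4.15 relative to the totals (exact 95% interval 1.46 to 16.2). The highest sham share, 0.0306%, lay above the lowest SCI share, 0.0255%. Each of these 9 circles reached the 2 reads needed for listing in an SCI library, in the deeper group, and 6 had no sham reads. The listing thus favours a ratio above 1, so the ratio and its interval cannot show a difference between the groups.

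The 664-base circle took 6.67%, 38.9% and 66.7% of Epha5 reads in the SCI libraries, against 92.9%, 57.1% and 100% in the sham libraries. The means were 37.4% ± 30.03 in SCI and 83.3% ± 22.96 in sham libraries (SD, n = 3 each), and the groups overlapped (two-sided exact permutation p = 0.20, adjusted 0.30 over the 3 hosts). The limit from the listing of the other circles holds for these shares too. Among the 9 others, the 388-base circle (25688447 to 25706504) had most reads, with 2, 4 and 0 in SCI libraries, against 0, 2 and 0 in sham libraries. The 544-base circle (25620880 to 25706504) had 0, 4 and 0 in SCI libraries, against 0, 1 and 0 in sham libraries, and the 446-base circle (25729108 to 25741271) had 4, 0 and 0 in SCI libraries, against 1, 0 and 0 in sham libraries. The other 6 were read in SCI libraries only, with 2 or 3 reads each. SCI replicate 1, which held 1 read of the 664-base circle, had reads of 7 of these 9 circles.

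**Figure D3:**
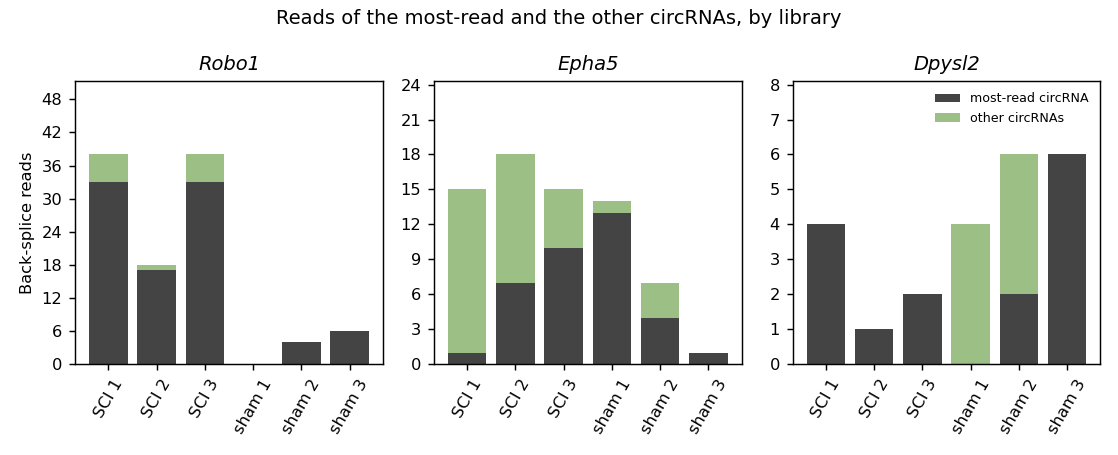
Back-splice reads (y axis) of each host in the 3 SCI and the 3 sham libraries, stacked as the most-read circle (dark) and all other circles of the host (green). For Robo1 the dark part makes up most of every bar, for Epha5 it goes from 1 of 15 reads in SCI replicate 1 to 13 of 14 in sham replicate 1, and for Dpysl2 the green part is found in sham replicates 1 and 2.

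Many of the circles were seen in 1 group. Of the 18, 10 had reads in SCI libraries only (4 of 5 for Robo1, 6 of 10 for Epha5 and 0 of 3 for Dpysl2), against 49.2% of all circRNAs in the table. Reads in sham libraries only were found for 2, both of Dpysl2, against 22% of the table. Of the 18, 8 were read in a single library, as were 58.1% of the table. The share of circles seen in SCI only was thus near that of the table. The number of different circles read per library was 13, 8 and 7 in SCI libraries, against 3, 6 and 3 in sham libraries. At the smallest total of 9805 reads, 8.94, 5.96 and 6 would be expected in SCI libraries and 2.84, 6 and 2.77 in sham libraries, and the groups overlapped. For Robo1 alone the expected numbers were 2.88, 1.47 and 2.63 in SCI libraries, against 0, 1 and 1 in sham libraries. All these expected numbers still include circles that reached the listing limit of 2 reads only in a deeper SCI library. They therefore do not fully remove the difference in depth, and hosts other than these 3 were not counted in this way.

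Set side by side, the order of the 3 hosts differed between the groups. In SCI libraries the mean shares ran from Robo1 (0.153%) over Epha5 (0.0778%) to Dpysl2 (0.0113%), and in sham libraries from Epha5 (0.0665%) over Dpysl2 (0.0476%) to Robo1 (0.0293%). These are shares of junction reads, where each circle counts at its 1 junction, and sums grow with the number of circles. In SCI libraries the highest Epha5 and the lowest Robo1 share were the same 0.0863%, both in replicate 2, and Dpysl2 lay below both hosts in every library. In sham libraries the ranges of the 3 hosts overlapped.

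The wider axon guidance list had few hosts with enough reads. Of 127 listed genes, 58 had circRNAs in sense, 159 in all, and 6 hosts passed the filter. Of these 6, 0 were called higher and 0 lower (edgeR, with 1 unadjusted p under 0.05, that of Robo1), 4 had a positive and 2 a negative log2 fold change, and the median was 0.20. Over all 647 hosts the median was 0.14, and 59.4% were positive. Among receptors and adhesion proteins, Dscam, a large cell adhesion receptor that also binds netrin, had 32, 28 and 32 reads in SCI libraries, against 12, 13 and 23 in sham libraries (log2 fold change 0.13, SE 0.38, adjusted p = 0.986 by edgeR). Cntn1, a contactin on the axon membrane, had 13, 22 and 17 reads in SCI libraries, against 14, 7 and 10 in sham libraries (-0.07, SE 0.50). Inside the cell, Ptk2, the focal adhesion kinase, had 24, 23 and 17 reads in SCI libraries, against 9, 5 and 16 in sham libraries (0.29, SE 0.49). None of these 3 had a fold change larger than its standard error. Of the 40 ligands in the list 9 had circRNAs and 0 passed the filter.

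**Figure D4:**
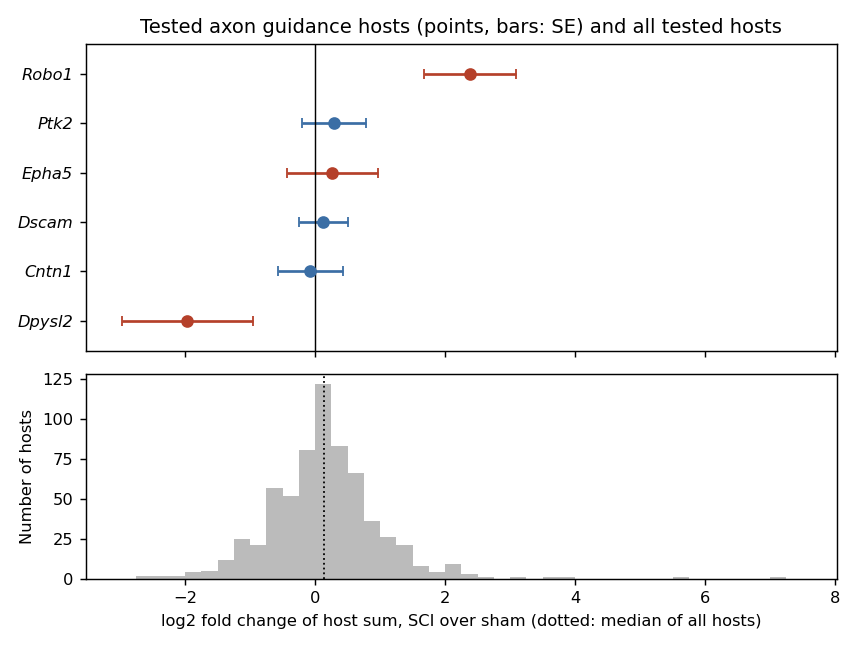
The log2 fold change of host sums, SCI over sham, for the 6 tested axon guidance hosts (top, bars are standard errors; Robo1, Epha5 and Dpysl2 in red) and as a histogram for all 647 tested hosts (bottom, dotted line at the median of 0.14). Robo1 (2.38) and Dpysl2 (-1.97) lie at opposite ends, and the other 4 hosts lie near 0.

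The families of the 3 hosts had fewer reads. Robo2, the paralog of Robo1 and also a Slit receptor, had 5, 0 and 8 reads in SCI libraries, against 3, 2 and 0 in sham libraries. Epha6 and Epha7, receptors of the same ephrin-A class as Epha5, had 8, 4 and 7 reads in SCI libraries, against 0, 3 and 0 in sham libraries (Epha6), and 5, 6 and 8 in SCI libraries, against 1, 5 and 2 in sham libraries (Epha7). Of the ephrin-B receptors, Ephb1 had 8 reads in SCI libraries and 0 in sham, and Ephb2 had 2 in each group, and Crmp1, a relative of Dpysl2, had 3 in SCI and 0 in sham libraries. None of these 6 paralogs passed the filter, so they were not tested, and their counts are not scaled for depth. The circles of Ephb1 and Crmp1 are in the table only because an SCI library, in the deeper group, reached 2 reads. Of all circRNAs in the table, 49.2% had reads in SCI libraries only. Like Epha5, Epha6 had its most reads on a circle of a single stretch of 664 bases (chromosome 11, 45248236 to 45248899, plus strand), with 8, 4 and 4 reads in SCI libraries, against 0, 1 and 0 in sham libraries. The Epha5 circle of that length had 1, 7 and 10 reads in SCI libraries, against 13, 4 and 1 in sham libraries. Of the 6967 exonic circRNAs of the table, 4 span 664 bases.

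Along the Slit and Robo pathway, whose members were picked here after their values were seen, the ligand Slit1 had 4, 9 and 6 reads in SCI libraries, against 3, 3 and 13 in sham libraries, with overlap. Slit2 had 2 reads, both in SCI replicate 2. Srgap1, a GTPase-activating protein that binds Robo1 inside the cell, had 5, 4 and 11 reads in SCI libraries, against 2, 1 and 0 in sham libraries, from 5 circles. Its relatives Srgap2 and Srgap3 had 2 and 3 reads over the SCI libraries, against 2 and 0 over the sham libraries. Enah, an actin regulator downstream of guidance receptors, had 3, 1 and 2 reads in SCI libraries, against 2, 0 and 13 in sham libraries, most of them in sham replicate 3. None of these genes passed the filter, so they were not tested. Their counts are not scaled for depth, and most of the Srgap1 circles reached the listing limit of 2 reads in SCI libraries only.

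Other hosts with like patterns over the 6 libraries were found by the root mean square difference of mean-centred log2 CPM, a description with no test. Nearest to Robo1 among 646 hosts was Mkrn1 (0.483, against a median of 2.13 over all hosts), with 17, 13 and 16 reads in SCI libraries, against 0, 4 and 4 in sham libraries. Next were Hibadh (0.489) and Myrip (0.655), which like Mkrn1 had 0 reads in sham replicate 1. Nearest to Epha5 were Lonp2 (0.272), Kdm4c (0.292) and Lrp6 (0.294), against a median of 1.31. Kdm4c had 35, 55 and 26 reads in SCI libraries, against 28, 12 and 3 in sham libraries, with the same order of the sham libraries as Epha5. Nearest to Dpysl2 were LOC681849 (0.284), RGD1565505 (0.475) and Ascc2 (0.529), against a median of 1.42. LOC681849 had 10, 3 and 7 reads in SCI libraries, against 8, 10 and 17 in sham libraries.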

How the data were processed

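Back-splice reads were counted in 3 SCI and 3 sham spinal cord libraries. Per the file headers, the deposited table gives junction read counts for each circRNA, unscaled whole numbers, beside log2 CPM values that the authors took from edgeR. All 66366 deposited log2 values matched a recomputation with TMM scaling and a prior count of 0.25, within 1e-06. Bowtie 0.12.2 and mm8, a mouse build, are listed in the submitters' processing notes. No circRNA caller is named there, and the sources used here do not name the build of the rat coordinates. RNA was extracted with Trizol and sequenced from TruSeq libraries, per the labels' protocols, and whether linear RNA was removed is not stated there.

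Host sums added the counts of all circRNAs of a symbol apart from the antisense class. Counts were tested in edgeR 4.0.16 (R 4.3.3) by quasi-likelihood with TMM scaling, filterByExpr (minimum count 5, minimum total 15), group as the only term and a Benjamini-Hochberg adjusted p under 0.05 over all features. Of the 18 circRNAs 2 passed the filter, as did all 3 hosts. CPM refer to features that passed, where 1 read was worth 76.9 to 165 CPM in the host fit and 100 to 222 CPM in the circRNA fit, so most circles are near the level of 1 read. Standard errors are the log2 fold change over the root of F. Shares were compared by exact permutation (SciPy 1.17.1), with 95% Wilson or exact binomial intervals, and 0 reads by a limit of 3. Shares of a circle within its host could not be fitted with diffSpliceDGE, since 2 or more tested circRNAs per host are needed. The scripts were tested on simulated data. Alternatives were other scalings and filters, DESeq2 1.42.0, limma-voom (limma 3.58.1), a replicate block, other sets of circRNAs and leaving out each library.

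The 3 hosts and all gene lists were chosen with earlier results of these data known. By rule, circRNAs with 10 or more reads are given one by one, others by range, position or count. From the axon guidance list the rule names hosts that passed the filter, the 5 most-read hosts and paralogs with reads, and for likeness 3 hosts each. Any other name, and the counts of single circles under 10 reads, were chosen after their values were seen.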

Additional observations from a re-analysis of the deposited data

How the results depend on the processing

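The log2 fold changes of Robo1 (1.90 to 3.05) and Dpysl2 (-2.49 to -1.58) kept their direction in all alternatives that gave a value, 15 and 13. Robo1 passed the threshold at 2.74 without a filter and at 3.05 without sham replicate 3; leaving out each library in turn gave 1.90 to 3.05. For Epha5 it ran from -0.23 to 1.15 (share difference -0.0181 to 0.0382 percentage points), negative without sham replicate 3, and for its 664-base circle from -1.45 to 0.46. Dpysl2 had too few reads at a minimum count of 10 and with exonic circles alone, and no host had enough without its most-read circle, an alternative added after the data were seen. The within-host share among filtered circles was not run, since at most 1 circle per host passed. Of all hosts tested, 2 were called in the main fit, 1 with RLE scaling, 7 without a filter, 4 with DESeq2, 1 with the replicate block, 1 with antisense circles added, 0 with exonic circles alone and 0 to 8 without a library. Of circRNAs, 1 was called in the main fit, 0 without a filter, 2 without TMM, at a minimum count of 10, with DESeq2, limma-voom or the replicate block, and 0 to 3 without a library. The cause of these changes was not tested. The median log2 fold change of the 647 hosts moved from 0.14 to 0.48 without a filter and to 0.28 with limma-voom. With the replicate block Robo1 stood at 2.46, Epha5 at 0.54 and Dpysl2 at -2.03, without a call. Deviations of same-numbered libraries correlated at 0.103, 0.0617 and 0.0900. Libraries of different numbers were not compared in this way, so whether the numbers pair the libraries is not known. The hosts had 0 to 38 reads per library, which limits the precision of every share and fold change.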
